A study of Mus musculus with 8 samples.

Results

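The 37 DNA repair and checkpoint genes described here were taken by their gene symbols; the list was drawn up with earlier results of these data known. On the array, 33 of the 37 had a probe under their symbol in the platform annotation, with 62 probes in all, out of 25697 probes and 16593 named genes. No probe carried the symbols Atr, Xrcc2, Trip13 or Fanca. Of the 33, 22 had a probe bright enough to test (detection p-value below 0.05 on 4 or more of the 8 arrays) and were tested, by 37 probes, among 8633 genes tested in all.

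The study used primary vascular smooth muscle cells, taken from carotid arteries of C57bl6 males. All of them lacked PMCA4, a pump of the plasma membrane that exports calcium and is encoded by Atp2b4. In 1 group, called rescued, the knockout cells had been electroporated with cDNA of PMCA4a; the other group was knockout cells without it. Serum was used to synchronise both groups, serum with PDGF-BB, a growth factor for smooth muscle, was then given to stimulate them, and RNA was taken in late G1/S, on 4 arrays per group. The labels give no age, do not name separate cultures or animals and describe no electroporated control, so p-values measure spread among samples that may be technical repeats, and electroporation and PMCA4a cannot be told apart. Bulk RNA was measured, in which a change in the number of cells making a transcript and a change in its level per cell cannot be told apart. Atp2b4 did not separate the groups: its 1 tested probe averaged 5.54 ± 0.22 on the rescued arrays and 5.51 ± 0.24 on the knockout arrays (SD, n = 4 each; limma, adjusted p = 0.911). The probe was dim, detected on 4 rescued and 3 knockout arrays, and no other Atp2b4 probe was detected on any array. Whether the tested probe lies in the deleted part or the cDNA was not analysed here, so it checks no label.

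DNA repair genes encode the proteins that find damage, halt the cycle and restore the sequence. The kinases ATM and ATR sense breaks and stalled forks and signal through CHK2 and CHK1. Breaks are mended by homologous recombination, which copies the sister chromatid in S and G2 phase, or by end joining, which needs no template. The Fanconi anaemia pathway opens cross-linked strands, mismatch repair removes replication errors, and base excision repair replaces damaged bases. Many recombination genes are transcribed most in S phase, together with the replication genes.

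Of the 22 tested genes, 13 were higher in rescued cells (limma, Benjamini-Hochberg adjusted p under 0.05), 0 were lower and 9 did not pass, where 39.9% of all tested genes passed, 21% as higher and 18.9% as lower. No member was lower even at an unadjusted p under 0.05 (0 genes), nor past the threshold under any other setting tried. The rises were modest: the median log2 difference, rescued minus knockout, was 0.33 over the 22 genes, or 1.26-fold, against 0.01 over all 8633 genes, and was the same with Bard1 at its lower bound; only the fitted fold of Bard1 passed 2-fold. In 11 genes the values of all 4 rescued arrays lay above all 4 knockout arrays, as in 21.6% of all genes. At the probe used for each gene, the largest rises were those of the recombination and cross-link repair genes Bard1, Rad51ap1 and Fancd2. The genes that did not pass at that probe included both break-signalling kinases tested, Atm and Chek2. Each of these 2 passed at another probe, Chek2 with a difference of 0.99. Without background correction the difference of Bard1 was 0.41, below those of Fancd2 (0.57), Xrcc6 (0.53) and Rad51ap1 (0.51), among others. Of the tested members, Bard1 was detected on rescued arrays only, so it could count only as a rise, and the other 21 were detected on all 8 arrays.

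**Figure D1:**
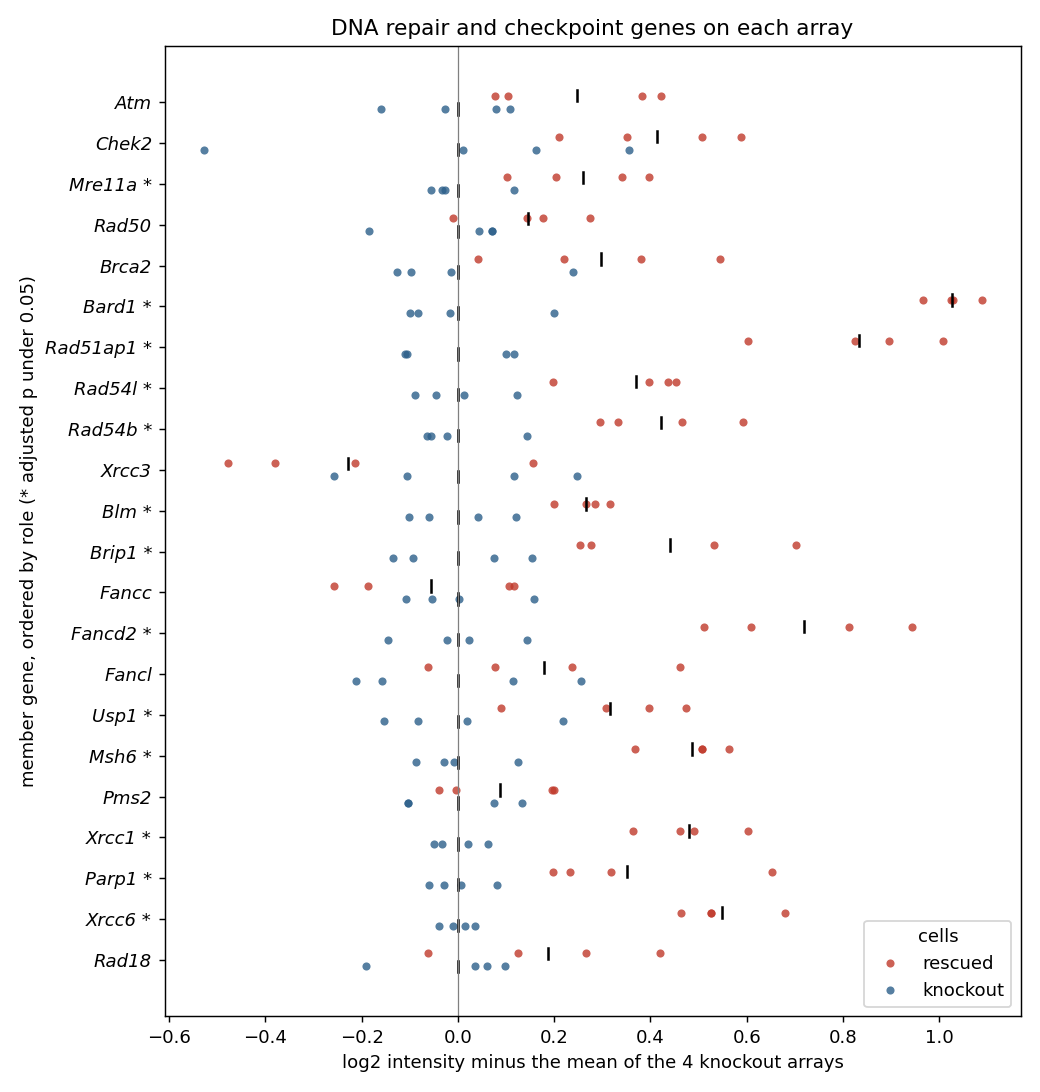
Log2 intensity of each tested gene on each array, minus the mean of the 4 knockout arrays of that gene. Points are arrays, short bars are group means, rescued above knockout in each row, and an asterisk marks an adjusted p under 0.05. The 4 rescued points of Bard1, Rad51ap1, Fancd2, Msh6, Xrcc1 and Xrcc6 lie clear of the knockout points, whereas those of Rad50, Xrcc3, Fancc, Fancl, Pms2 and Rad18 overlap them.

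The stretch of DNA around the start site was read as a description, without a test, for members that rose and members that did not. The RefSeq promoter table (build GRCm38.p6), which covers 250 bases before to 50 bases after each start, held 27 of the members, 2 of them with 2 starts, giving 29 promoters; the 2 starts of a gene lie so close that their windows overlap. CCAAT, the word bound by the factor NF-Y, was searched on both strands and stood in 19 of the 29, or 65.5%, against 37.4% of all 32851 promoters and 37.9% of the 9129 promoters of genes tested here. Among members that rose, 9 of 11 promoters (8 of 10 genes) held it, and those of Bard1 and Parp1 did not. Of the tested members that did not pass, Atm, Chek2, Fancc, Pms2 and Xrcc3 held it too, whereas Brca2, Fancl and Rad18 did not. Whether CCAAT goes with the rise was not tested. The E2F words TTTCGCGC and TTTGGCGC stood in 1 of the 29 (3.45%, that of Topbp1, which was not tested), against 0.813% of all promoters and 1.51% of those of tested genes, and the cell-cycle homology words TTTGAA and TTCGAA in 2 of the 29 (6.9%, Bard1 and Neil3), against 19.2% of all promoters and 13.7% of those of tested genes. None of these words overlaps another of them in the promoters printed. Other forms of the E2F word, such as TTTCCCGC, were not searched, so the E2F count does not cover all E2F sites. The letters TTTCCCGC stand in the printed promoters of Bard1 and Msh6, on the opposite strand in that of Xrcc6, and not in that of Rad51ap1. The 4 promoters below belong to the tested members with the largest differences that the table holds; Bard1 was taken by a fixed rule on E2F and cell-cycle words, and the other 3 were chosen after their values were seen. Capitals mark a cell-cycle homology word in Bard1 and CCAAT on the opposite strand (ATTGG) in the others.
Bard1 promoter, chr1:71102923-71103222, minus strand: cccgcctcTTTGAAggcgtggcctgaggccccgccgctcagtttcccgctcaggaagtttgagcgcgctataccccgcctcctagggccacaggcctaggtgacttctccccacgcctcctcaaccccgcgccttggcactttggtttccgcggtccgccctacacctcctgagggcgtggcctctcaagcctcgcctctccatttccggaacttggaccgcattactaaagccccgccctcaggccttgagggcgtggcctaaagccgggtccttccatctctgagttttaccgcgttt
Rad51ap1 promoter, chr6:126939538-126939837, minus strand: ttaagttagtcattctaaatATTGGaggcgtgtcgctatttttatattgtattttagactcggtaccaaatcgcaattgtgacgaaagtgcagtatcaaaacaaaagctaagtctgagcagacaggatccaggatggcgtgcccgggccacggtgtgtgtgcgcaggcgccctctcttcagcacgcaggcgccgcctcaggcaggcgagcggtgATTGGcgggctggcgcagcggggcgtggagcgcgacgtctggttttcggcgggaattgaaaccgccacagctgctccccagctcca
Xrcc6 promoter, chr15:82016119-82016418, plus strand: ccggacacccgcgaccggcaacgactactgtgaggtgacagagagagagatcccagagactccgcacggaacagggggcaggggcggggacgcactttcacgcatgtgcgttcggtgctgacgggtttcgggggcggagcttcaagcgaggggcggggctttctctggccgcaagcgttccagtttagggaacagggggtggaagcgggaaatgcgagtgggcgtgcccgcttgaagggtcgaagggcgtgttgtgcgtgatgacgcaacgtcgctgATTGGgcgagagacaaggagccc
Msh6 promoter, chr17:87974800-87975099, plus strand: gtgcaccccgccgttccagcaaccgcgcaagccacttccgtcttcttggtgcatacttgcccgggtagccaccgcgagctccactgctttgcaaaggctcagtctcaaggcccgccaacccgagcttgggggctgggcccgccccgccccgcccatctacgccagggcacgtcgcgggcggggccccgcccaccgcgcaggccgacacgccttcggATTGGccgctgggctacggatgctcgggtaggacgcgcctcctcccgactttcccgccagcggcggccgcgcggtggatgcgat
Counting the start site as 0, the CCAAT words begin at -230 and -36 in Rad51ap1, at 27 in Xrcc6 and at -34 in Msh6, and the word in Bard1 at -242. These are matches of letters, not measured binding.

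Of the 6 tested genes of homologous recombination, 4 rose, where 21% of all tested genes passed as higher. The members' counts by pathway, here and below, rest on few genes each, and no pathway was tested as a set. Bard1 (chromosome 1, probe ILMN_1242054) encodes the partner of BRCA1 in a ubiquitin ligase. Its log2 intensities were 6.07, 6.19, 6.13 and 6.14 on the rescued arrays, against 5.02, 5.09, 5.01 and 5.31 on the knockout arrays. The rescued arrays lay within a narrow band above every knockout array, none of which detected the probe. On the background-corrected scale the level in rescued cells was thus at least 1.78-fold higher (fitted log2 difference 1.03, SE 0.08, adjusted p = 1.73e-05). With no background correction the fitted difference of Bard1 was 0.41, so that bound holds only for the corrected values.

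Rad51ap1 (chromosome 6, ILMN_2753226), which encodes a protein of homologous recombination, read 7.18, 7.41, 7.59 and 7.48 in rescued cells, against 6.47, 6.48, 6.68 and 6.70 in knockout cells. The groups did not overlap, and the difference of 0.83 (SE 0.10, adjusted p = 0.000243) was 0.51 without background correction. Rad54l (chromosome 4, ILMN_2741985), a motor protein of strand exchange, had values of 9.23, 8.99, 9.25 and 9.19 on rescued arrays, against 8.81, 8.70, 8.75 and 8.92 on knockout arrays. Its relative Rad54b (chromosome 4, ILMN_3161959) stood at 9.46, 9.64, 9.50 and 9.76 in rescued cells, against 9.31, 9.10, 9.15 and 9.11 in knockout cells. In both genes every rescued array exceeded every knockout array, with differences of 0.37 (SE 0.08, adjusted p = 0.00629) for Rad54l and 0.42 (SE 0.09, adjusted p = 0.00448) for Rad54b.

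Brca2, a central gene of homologous recombination, gave different calls at its 2 probes. The brighter one (chromosome 5, ILMN_2634750) read 7.70, 7.53, 7.36 and 7.86 in rescued cells, against 7.55, 7.19, 7.22 and 7.30 in knockout cells. The groups overlapped, and the difference of 0.30 (95% interval 0.02 to 0.57) had an adjusted p of 0.0841, or 0.0257 without rescued replicate 3 (difference 0.38) and 0.043 without knockout replicate 1 (0.38). The other probe, ILMN_3109564, read 6.98, 7.37, 7.23 and 7.52 in rescued cells, against 6.53, 6.80, 6.91 and 6.26 in knockout cells, with no overlap and a difference of 0.65 (adjusted p = 0.00992). Xrcc3 (chromosome 12, ILMN_2496421), also a gene of homologous recombination, had 5.96, 5.70, 6.33 and 5.79 on rescued arrays, against 6.29, 6.42, 6.07 and 5.92 on knockout arrays. Its groups overlapped and its difference was -0.23 (95% interval -0.57 to 0.12, adjusted p = 0.274), 1 of only 2 below 0 among the tested members. It was -0.36 without rescued replicate 3 (adjusted p = 0.0537), and -0.15 without rescued replicate 2 or without knockout replicate 2. Brca1 and Palb2, which bring BRCA2 to breaks, had 1 probe each, not detected on any array.

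The 2 tested helicases of recombination rose. Blm (chromosome 7, ILMN_3150996), which dissolves recombination intermediates, read 8.98, 9.00, 9.04 and 8.92 in rescued cells, against 8.84, 8.66, 8.76 and 8.62 in knockout cells. The difference of 0.27 (SE 0.07, adjusted p = 0.0162) was small but without overlap, and a second probe differed by 0.32 (adjusted p = 0.0106). Brip1 (chromosome 11, ILMN_2643883), a BRCA1-associated helicase that is also a Fanconi gene, read 8.61, 8.59, 9.04 and 8.87 in rescued cells, against 8.20, 8.41, 8.24 and 8.49 in knockout cells, a difference of 0.44 without overlap (SE 0.12, adjusted p = 0.0147). All 3 probes of the nuclease gene Exo1 were undetected on all arrays.

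Of 4 Fanconi pathway genes tested, 2 rose. Fancd2 (chromosome 6, ILMN_3161617), whose product is ubiquitinated at cross-links, read 8.46, 8.56, 8.76 and 8.89 in rescued cells, against 7.81, 7.97, 8.09 and 7.93 in knockout cells. Every rescued array lay above every knockout array, by 0.72 on average (1.65-fold, SE 0.11, adjusted p = 0.000773). Usp1 (chromosome 4, ILMN_2781170), which encodes the enzyme that removes that ubiquitin, read 8.74, 8.96, 9.13 and 9.05 in rescued cells, against 8.57, 8.50, 8.67 and 8.87 in knockout cells. Here the groups overlapped, and the difference of 0.32 (adjusted p = 0.0443) lost its call without rescued replicate 2, 3 or 4 or knockout replicate 1, 2 or 3 (differences 0.26 to 0.32, adjusted p from 0.0772 to 0.115). The 2 other tested probes of Usp1 did not overlap between groups and differed by 0.51 and 0.48 (adjusted p = 0.00517 and 0.002).

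The ligase subunit gene Fancl (chromosome 11, ILMN_1247125) read 6.64, 6.12, 6.26 and 6.42 in rescued cells, against 6.44, 6.30, 6.03 and 5.97 in knockout cells. Fancc (chromosome 13, ILMN_2678661), of the Fanconi core complex, read 6.13, 6.14, 5.77 and 5.84 in rescued cells, against 6.03, 6.18, 5.91 and 5.97 in knockout cells. Both overlapped, with differences of 0.18 for Fancl (95% interval -0.13 to 0.49, adjusted p = 0.343) and -0.06 for Fancc (95% interval -0.29 to 0.18, adjusted p = 0.716). Fancl differed by 0.08 without rescued replicate 1 and by 0.11 without knockout replicate 4. Fancb and Fancm were undetected on all arrays, and Fancg was detected on 1 rescued array only.

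Among checkpoint kinases the call depended on the probe. Atm, the kinase that responds to breaks (chromosome 9, ILMN_1258206), read 6.79, 6.76, 7.06 and 7.10 in rescued cells, against 6.76, 6.52, 6.79 and 6.66 in knockout cells. The groups overlapped at their edges, and the difference of 0.25 (95% interval 0.01 to 0.48) did not pass (adjusted p = 0.0894). A dimmer Atm probe, ILMN_2783896, read 5.75, 5.82, 5.93 and 5.85 in rescued cells, against 5.44, 5.46, 5.34 and 5.26 in knockout cells, without overlap (0.46, adjusted p = 0.00113). It was detected on 4 rescued and 3 knockout arrays, and its difference was 0.18 without background correction.

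Chek2 (chromosome 5) encodes the kinase that ATM activates. Its brightest probe, ILMN_2856599, read 6.89, 6.75, 7.13 and 7.05 in rescued cells, against 6.71, 6.55, 6.02 and 6.90 in knockout cells. Knockout replicate 3 was low and knockout replicate 4 within the rescued range, and the difference of 0.41 (95% interval 0.02 to 0.81) had an adjusted p of 0.0908, or 0.0417 without knockout replicate 4 (difference 0.53) and 0.166 without knockout replicate 3 (0.24). The difference at that probe was 0.23 without background correction (adjusted p = 0.0673). The second probe, ILMN_2633492, read 7.0, 6.79, 7.44 and 6.92 in rescued cells, against 6.33, 5.93, 6.08 and 5.87 in knockout cells, with no overlap and a difference of 0.99 (adjusted p = 0.000875), or 0.53 without background correction. Chek1, the kinase that ATR activates, was not tested, because its best probe was detected on 3 rescued and 0 knockout arrays. Topbp1, the activator of ATR, was undetected on all arrays.

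The MRN complex binds broken ends and recruits ATM, and 1 of its 2 tested genes rose. Mre11a (chromosome 9, ILMN_1250857), its nuclease, read 9.90, 10.03, 9.79 and 10.09 in rescued cells, against 9.67, 9.66, 9.64 and 9.81 in knockout cells. The difference of 0.26 passed (SE 0.08, adjusted p = 0.0342) with a slight overlap. That call was lost without rescued replicate 2 or 4 or knockout replicate 1, 2 or 3 (differences 0.21 to 0.25, adjusted p from 0.0797 to 0.0869), and the 2 other probes differed by 0.13 and 0.29 without passing (adjusted p = 0.266 and 0.131). Rad50 (chromosome 11, ILMN_2867427), the tether of the complex, read 10.04, 10.19, 10.23 and 10.32 in rescued cells, against 10.12, 9.87, 10.09 and 10.12 in knockout cells. It overlapped and did not pass (0.15, 95% interval -0.05 to 0.35, adjusted p = 0.225), and was 0.09 without knockout replicate 2. None of the 3 probes of Nbn was detected on any array.

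Of the 2 mismatch repair genes, Msh6 rose and Pms2 did not pass. Msh6 (chromosome 17, ILMN_2631098), which recognises mispaired bases, read 11.16, 11.22, 11.02 and 11.16 in rescued cells, against 10.63, 10.78, 10.64 and 10.57 in knockout cells. Its difference of 0.49 (SE 0.07, adjusted p = 0.000905) recurred at a second probe (0.47, adjusted p = 0.00194), neither with overlap. Pms2 (chromosome 5, ILMN_2707947), which nicks the strand to be replaced, read 6.99, 7.19, 6.96 and 7.20 in rescued cells, against 6.89, 6.89, 7.07 and 7.13 in knockout cells. The groups of Pms2 overlapped, and the difference was 0.09 (95% interval -0.12 to 0.29, adjusted p = 0.478), or 0.05 without rescued replicate 2 or 4 or knockout replicate 1 or 2.

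Both tested genes of single-strand break repair rose. Xrcc1 (chromosome 7, ILMN_3160475), the scaffold of that repair, read 9.36, 9.23, 9.47 and 9.33 in rescued cells, against 8.89, 8.82, 8.93 and 8.83 in knockout cells. The groups were well apart, by 0.48 (SE 0.07, adjusted p = 0.00079). Parp1 (chromosome 1, ILMN_2971744), which marks breaks with poly(ADP-ribose), read 10.52, 10.10, 10.19 and 10.06 in rescued cells, against 9.81, 9.84, 9.95 and 9.87 in knockout cells. Rescued replicate 1 was the highest and no array overlapped, with a difference of 0.35 (SE 0.10, adjusted p = 0.024). The call of Parp1 was lost without knockout replicate 1, 2 or 4 (0.33, 0.34 and 0.35, adjusted p = 0.0619, 0.0573 and 0.0507), and its 2 other probes differed by 0.40 (adjusted p = 0.0194) and 0.22 (adjusted p = 0.353). The glycosylase gene Neil3 was undetected on all arrays.

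Xrcc6 (chromosome 15, ILMN_2862619) encodes Ku70, 1 subunit of the ring that holds broken ends for joining. It read 11.51, 11.44, 11.66 and 11.51 in rescued cells, against 11.02, 10.94, 10.97 and 11 in knockout cells. The spread within each group was far smaller than the gap of 0.55 between them (SE 0.07, adjusted p = 0.000278), and 2 further probes differed by 0.33 and 0.50 (adjusted p = 0.00749 and 0.0154). The only probe of Xrcc5, which encodes the Ku80 subunit, was undetected on all arrays. Rad18 (chromosome 6, ILMN_2652042), a ligase that marks PCNA at stalled forks, read 7.70, 7.84, 7.52 and 8.0 in rescued cells, against 7.39, 7.61, 7.67 and 7.64 in knockout cells. It overlapped and did not pass (0.19, 95% interval -0.07 to 0.44, adjusted p = 0.22), and was 0.11 without rescued replicate 4 and 0.12 without knockout replicate 1.

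**Figure D2:**
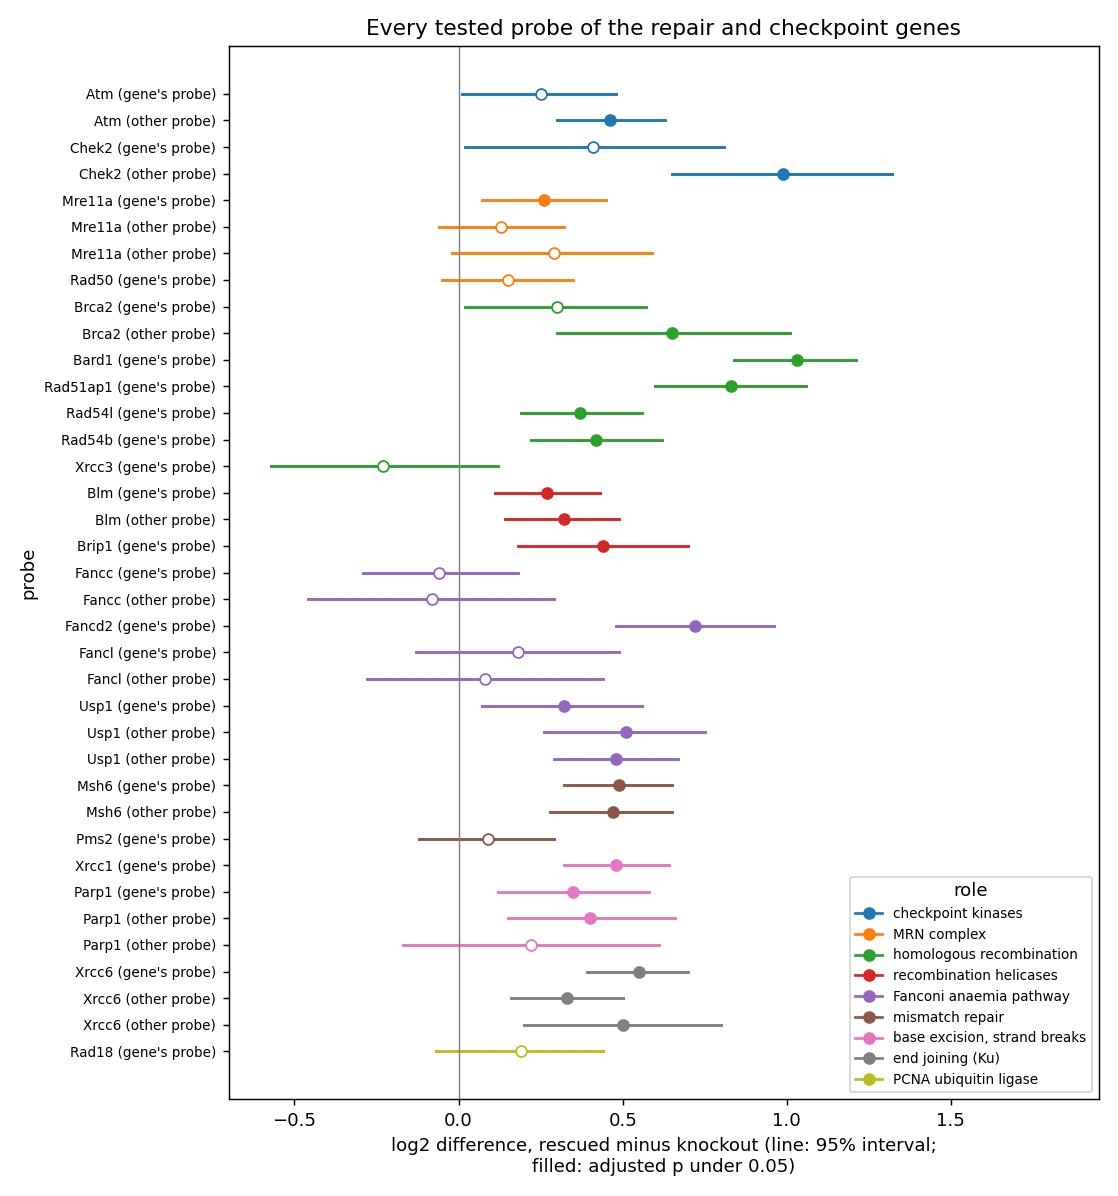
Log2 difference, rescued minus knockout, of each of the 37 tested probes, with its 95% interval, ordered and coloured by role; filled points have an adjusted p under 0.05. Of the 37 probes, 34 lie above 0, where 4429 of all 8633 tested genes did. Atm, Chek2 and Brca2 each have an open point at the probe used for the gene and a filled one at another probe.

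Over probes, 23 of the 37 passed, all higher, 34 differences were above 0 and 3 below, where 38.8% of all 12658 tested probes passed in either direction and 20% as higher. By gene, 20 of the 22 members lay above 0, where 4429 of all 8633 tested genes did. Of 11 genes with more than 1 tested probe, 4 passed at every probe, 5 at some and 2 at none. Counting a gene by any passing probe would give 16 genes, which adds Atm, Chek2 and Brca2, chosen by their values. Fitting the mean of a gene's probes gave 15, with those 3 and without Parp1, where 40.9% of all genes passed by that mean. For the probe used for each gene, the median SE was 0.08 among the 13 genes that passed and 0.11 among the 9 that did not.

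Genes of the same pathways outside the list were counted pathway by pathway. Of 114 further repair genes listed, 79 were tested, of which 30 rose and 5 fell, while 44 did not pass; their median difference was 0.17. The share past the threshold, 44.3%, was near the 39.9% of all genes, with 38% higher, against 21% of all genes. In checkpoint signalling 9 of 17 rose and the other 8 did not pass, led by the fork protection partners Timeless (0.79, adjusted p = 0.000175) and Tipin (0.52, adjusted p = 0.00028) and by the ATR activator Etaa1 (0.58, adjusted p = 0.000261). In homologous recombination 7 of 10 rose and the other 3 did not pass; among those that rose were the single-strand binding subunits Rpa1 (0.56) and Rpa3 (0.42) and the ATPase gene Fignl1 (0.59). Translesion synthesis, which copies past damage, had 5 of 10 genes higher, with Rev1 (0.80, adjusted p = 0.000153), the ubiquitin-conjugating enzyme gene Ube2n (0.69) and the polymerase gene Poli (0.51) first.

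In base excision repair 4 of 16 rose, including the flap nuclease gene Fen1 (0.69, adjusted p = 4.87e-05), Parp2 (0.69) and the uracil glycosylase gene Ung (0.56), and 12 did not pass; the 25% that rose are near the 21% of all genes. In nucleotide excision repair 3 of 13 rose and 2 fell, a share of 38.5% near the 39.9% of all genes: the nuclease gene Ercc5 rose by 0.33, and Xpa, which verifies the lesion, and Ercc1, the partner of the XPF nuclease, fell by 0.40 and by 0.65 on the log2 scale (adjusted p = 0.000807 and 0.00575). Of 6 other Fanconi genes, 2 rose, Fanci, the partner of FANCD2 (0.71, adjusted p = 0.00148), and Faap24 (0.32, adjusted p = 0.0332), whose call was lost without rescued replicate 2 or 3 or knockout replicate 1, 2 or 3 (adjusted p from 0.0662 to 0.0903). A single gene fell, the XPF gene Ercc4, by 0.32 (adjusted p = 0.00503). In end joining 1 of 6 fell, the polymerase gene Polm (by 0.42, adjusted p = 0.0174), and the other 5 did not pass. Xrcc4 and Nhej1 differed by -0.22 and -0.20 without passing (adjusted p = 0.0549 and 0.15); Xrcc4 passed without knockout replicate 2 (-0.26, adjusted p = 0.0482) and Nhej1 without rescued replicate 4 (-0.30, adjusted p = 0.0203). The 1 further mismatch gene tested, Mlh3, fell by 0.60 (adjusted p = 0.0108).

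Most replication and mitotic genes rose as well, with larger medians than that of the members. Of 20 tested S-phase replication genes, 19 rose, with a median of 0.68; the helicase subunit gene Mcm6 rose by 1.06 and the thymidylate synthase gene Tyms by 0.95. Of 18 tested mitotic genes, 17 rose, with a median of 0.88. Averaged over the 22 members, log2 intensity was 8.35 to 8.46 on the rescued arrays and 8.02 to 8.07 on the knockout arrays. For the S-phase genes the ranges were 10.14 to 10.24 on rescued arrays and 9.52 to 9.59 on knockout arrays, and for the mitotic genes 10.72 to 10.95 on rescued arrays and 9.87 to 10 on knockout arrays. All 3 averages thus separated the groups, and the part of the share of cycling cells in the members' rise was not tested.

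**Figure D3:**
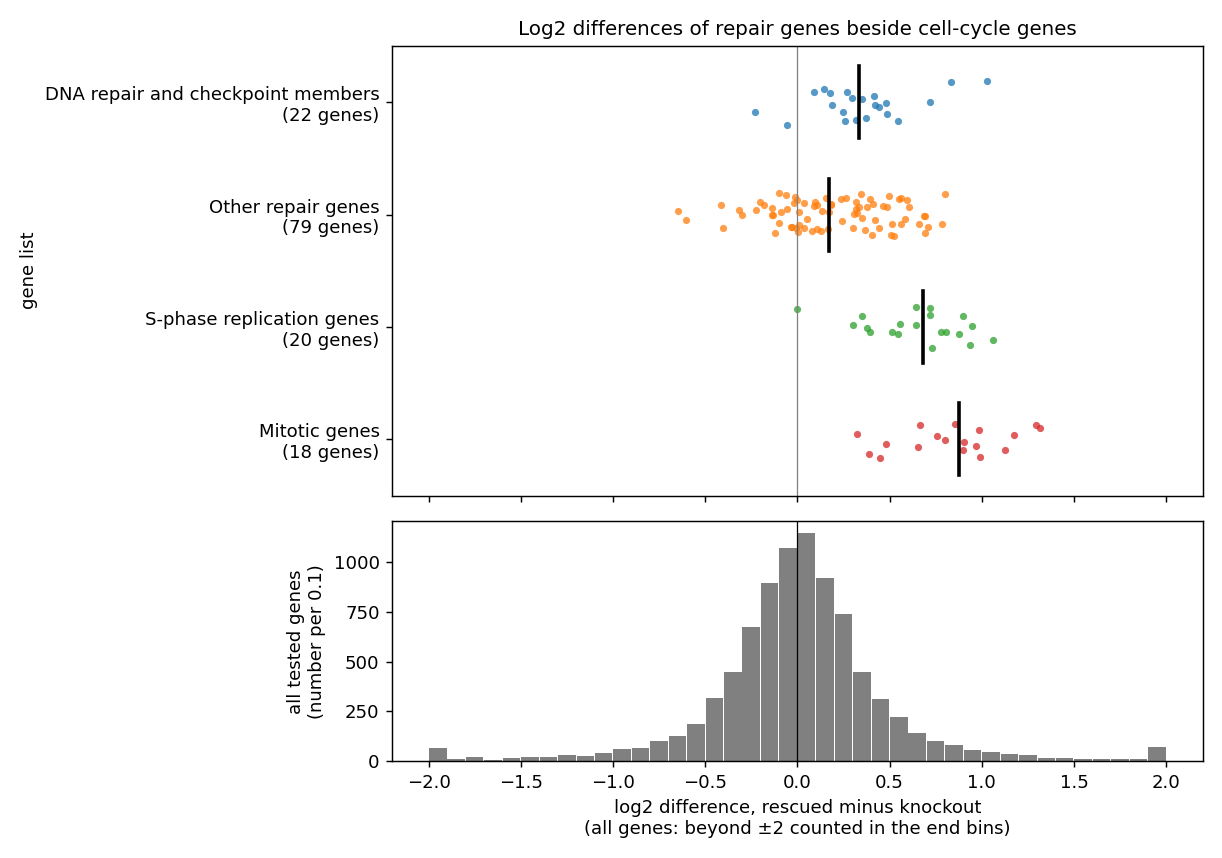
Upper panel, log2 difference, rescued minus knockout, of each tested gene (points, spread vertically for legibility) in 4 lists, with the median as a bar; lower panel, the number of all 8633 tested genes per 0.1 of log2 difference. The members' median of 0.33 lies between those of the other repair genes (0.17) and of the S-phase genes (0.68), with the mitotic genes at 0.88.

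Whole chromosomes were shifted between the groups, which touches several members. The median difference of all tested probes was -0.31 on chromosome 12, -0.19 on chromosome 4, -0.18 on chromosome 3 and 0.21 on chromosome 15, and between -0.02 and 0.11 on the other numbered chromosomes and X. Rad54l, Rad54b and Usp1, on chromosome 4, thus rose on a chromosome whose probes were mostly lower. After each chromosome was centred on its own median, they differed by 0.57, 0.62 and 0.51. Xrcc6, on chromosome 15, kept its call with a smaller difference (0.33, adjusted p = 0.00281), while its 2 other probes lost theirs (0.11 and 0.28, adjusted p = 0.271 and 0.12). Xrcc3, on chromosome 12, turned from below 0 to 0.08, still without passing (adjusted p = 0.725). Rad18, on chromosome 6, differed by 0.07 (adjusted p = 0.616) and Pms2, on chromosome 5, by 0.04. The count of members past the threshold remained 13. Among the other repair genes named, centring ended the calls of Mlh3 (-0.30, adjusted p = 0.167), also on chromosome 12, and Ercc5 (0.24, adjusted p = 0.0619). Xpa, on chromosome 4, differed by -0.21 after centring (adjusted p = 0.0297), against -0.40 before it.

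**Figure D4:**
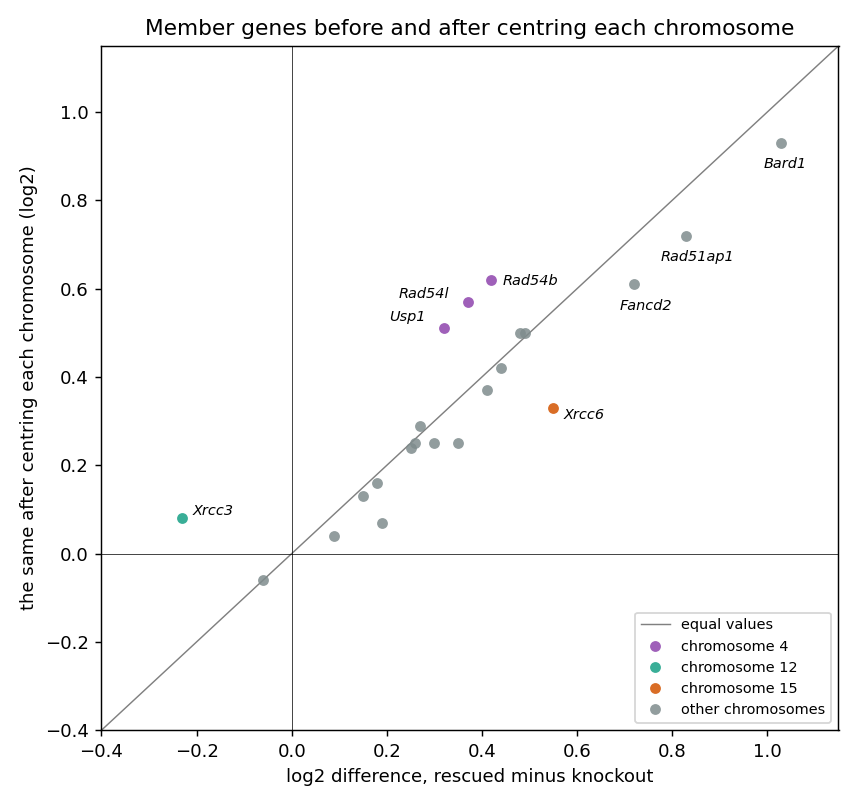
Log2 difference, rescued minus knockout, of each of the 22 tested genes as measured (x axis) and after each chromosome was centred (y axis); the line marks equal values. The 3 genes on chromosome 4 lie above the line, Xrcc6 on chromosome 15 lies below it, and Xrcc3 on chromosome 12 crosses 0.

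Across the series, 12640 to 12873 probes were detected on rescued arrays and 12223 to 12427 on knockout arrays. Smooth muscle markers had a summed intensity of 61214 to 68658 on rescued and 68182 to 73141 on knockout arrays, with 2 of 8 tested higher and 3 lower. Acta2, which made up most of that sum, averaged 15.83 in rescued and 15.87 in knockout cells and did not pass. It lay near the brightest readings of the arrays (61011 to 65109 before the log), so a difference there could be missed. Actg2 fell to 5.88 in rescued cells, against 8.73 in knockout cells, and Tagln to 8.84 in rescued cells, against 10.27 in knockout cells. Tpm2 was lower too (-0.66), Smtn (0.43) and Myocd (1.70, detected on 1 knockout array) were higher, and Cnn1 and Lmod1 were undetected on all arrays. Endothelial markers had a summed intensity of 259 to 492 on rescued and 162 to 215 on knockout arrays, with 2 of 3 tested higher and Pecam1, Cdh5 and Tie1 undetected. Of those higher, Vwf was detected on rescued arrays only, so it could count only as a rise. Each sum covers only the tested markers of its list. Leukocyte markers had 443 to 496 on rescued and 221 to 315 on knockout arrays, with 2 of 3 tested higher, 1 lower and Ptprc, Itgam and Adgre1 undetected. Of those higher, Lyz2 was detected on 1 knockout array. Adventitial fibroblast markers had 4881 to 17625 on rescued and 13534 to 14867 on knockout arrays, with 1 of 10 tested higher and 6 lower, rescued replicate 3 being the highest. Without that array 13 members passed again, with Brca2 gained and Usp1 lost. The other rescued arrays had 4881 to 6305 for fibroblast markers, below every knockout array, so leaving out rescued replicate 3 widens that gap. The part of the marker shifts in the members' differences was not tested.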

How the data were processed

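Total RNA of 8 samples was amplified into biotin-labelled cRNA and hybridised to 1-colour Illumina bead arrays, per the labels' protocols. The authors deposited, per the file headers, a linear intensity for each probe, not normalized, and a detection p-value. Their second deposited table holds log2 values; it differed from the log2 values computed here by at most 0.0266 on any array, with column medians of 5.17 to 5.18, so scale and direction were the same and probes were not centred. The software used is not given in these sources, and neither slide nor scan date is recorded.

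Background correction and quantile normalization used neqc (offset 16; negative controls inferred through detection p) in limma 3.58.1 under R 4.3.3. A probe was kept where its detection p was under 0.05 on 4 or more arrays (12658 of 25697). Rescued minus knockout was fitted per probe with lmFit and eBayes, with Benjamini-Hochberg adjustment across the kept probes. The brightest kept probe, by its mean over the 8 arrays, stands for a gene; 23978 probes had 1 gene symbol, 0 several and 1719 none, and all 33 members with a probe matched a RefSeq table of GRCm38.p6. Where no knockout array detected a probe, the fold is a lower bound on the background-corrected scale. It is set against the higher of the probe's own level and the lowest detected level on each knockout array. Intervals are 95% from the moderated fit. Arrays limit precision by their number. The brightest member signal was 3558, and the files hold no saturation flag.

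The members, gene lists, tests and alternatives were chosen with earlier results of these data known. The rule for values on every array took the 14 members with the smallest adjusted p and all members that fell or did not pass, with up to 3 genes per further pathway and any there that fell. Alternatives were other background corrections, normalizations, filters, variance models, array weights, a block for the replicate number, the deposited values, the mean of a gene's probes, centring of each chromosome, stricter thresholds and each array left out. In a simulation of this comparison, over 12658 probes, the fit found 62% of the 100 probes given a change of 1.5-fold and 89% of the 100 given 2-fold. False calls numbered 10. No other probe was changed in it, whereas 38.8% of the probes passed in the data, so its shares need not hold for the data. Changes below 1.5-fold, the size of most members' differences, were not simulated.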

Additional observations from a re-analysis of the deposited data

Results flagged for a closer look

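Among 46 groups of 4 arrays (22 members and their mean, in each group of cells), 2 had 1 array far from the rest by Dixon's 95% critical value, where chance flags about 1 in 20. For Mre11a, knockout replicate 4 stood at 9.81, against 9.64 to 9.67 on the other knockout arrays. For Rad50, knockout replicate 2 stood at 9.87, against 10.09 to 10.12.

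Probes left out by the detection filter gave signal on rescued arrays and on no knockout array for 2 members. Chek1 averaged 5.35 on the rescued arrays, 3 of which detected it, and 4.80 on the knockout arrays, none of which did. Its values of 5.50, 5.18, 5.24 and 5.47 in rescued cells lay above 4.60, 4.83, 5.08 and 4.70 in knockout cells, which are background readings, so no fold is given. Fancg averaged 4.92 on the rescued arrays, 1 of which detected it, and 4.81 on the knockout arrays, with overlapping values.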

How the results depend on the processing

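Of the 13 members past the threshold, 10 stayed past it in every one of 20 settings that tested them (Bard1, Rad51ap1, Rad54l, Rad54b, Blm, Brip1, Fancd2, Msh6, Xrcc1 and Xrcc6). Usp1 lost its call in 8 settings, Mre11a in 5 and Parp1 in 4, while Brca2 passed in 5, Chek2 in 2 and Atm in 1. With an adjusted p under 0.01, 8 members and 3037 of all probes remained past the threshold. A test for changes beyond 1.5-fold left 1 member (2 at unadjusted p under 0.05), 0 of the other repair genes (2 at unadjusted p under 0.05, limma) and 581 probes. That member was Bard1, whose knockout readings are background and whose difference was 0.41 without background correction. Centring each chromosome turned Xrcc3 from -0.23 to 0.08. Leaving out 1 array at a time gave 10 to 13 members, 4141 to 5056 probes, 31 to 35 other repair genes and a members' median of 0.30 to 0.37, and took Fancc from -0.11 to 0.01. With the replicate number as a block, 13 members and 4206 probes passed. Deviations of same-numbered arrays correlated at -0.02, -0.06, -0.08 and -0.00, so no strong effect shared by same-numbered arrays was seen. The labels do not say whether same-numbered samples were paired, and these correlations cannot settle it. The array count and the dimness of 11 untested members limit what can be said of them.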
